A study of Oryza sativa with 8 samples.

Results

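In rice seedlings, 198 of the 59903 genes in the count table met a rule for low expression in drought followed, after rewatering, by a level above that of never-stressed plants. A count table row was taken as a member when its mean level in drought was at most 0.5 of the normally watered mean, its mean in recovery was at least 2 times the normal mean, and its recovery mean was at least 10 CPM (the count divided by the library total and multiplied by 1000000). The members were chosen by their wild type values in all 3 conditions, so the levels and ratios that follow describe the choice and are not tests of it. Of the 59903 rows, 30074 held a count in at least 1 wild type library, and all 198 members passed the filter on low counts among 22898 tested genes.

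RNA-seq was made from whole seedlings of the rice variety MH63, with 2 replicates of at least 30 seedlings in each group. After 14 days of growth under full watering, wild type plants were either kept watered (normal), dried for 15 days until soil moisture stood near 5% from day 11 on (drought), or dried in the same way and then watered again for 4 days (recovery). A further group was drought-treated plants labelled osbzip23, after a transcription factor of abscisic acid signalling. Normal and drought plants were harvested together and recovery plants 4 days later. In any comparison of recovery with normal or with drought, the rewatering and the later harvest therefore cannot be told apart. Each library mixes all tissues of the seedling, and fewer cells of a type and less RNA per cell cannot be told apart in such samples.

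Water loss closes the stomata of a leaf, raises abscisic acid and lowers the expression of many genes for photosynthesis, cell expansion and cell division, which plants need for growth. On rewatering, growth and carbon fixation resume, and some transcripts pass through levels that a continuously watered plant does not show before they settle. A transcript that is low in drought and above normal afterwards is said to overshoot. This is background. None of the 198 row labels matched the reference table of 39387 rice genes, and the count table pairs no label with a gene name, so no function is given to any member.

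The 6 wild type libraries held 37400784 to 42894245 counts. Over the first 40897 rows, log2(CPM + 1) correlated across rows at r = 0.906 to 0.998 between wild type libraries, but at -0.0130 to -0.00974 between wild type and osbzip23 libraries. The rows of the osbzip23 libraries thus did not correspond to those of the wild type libraries, and osbzip23 values of the members are not analysed here. A label printed below is the name of a row and does not show which gene was measured. Row 40897 was the last with a count in drought replicate 1. Of the 19006 rows after it, 14 had a recovery mean of at least 10 CPM, and 6 of these 14 were members. In the whole table, 198 of the 11336 rows at that recovery level were members. A drought library without counts lowers the drought mean, so it favours membership of these later rows. All 6 later members had 0 counts in both drought libraries, and their recovery means ran from 10.1 to 170.3 CPM. The rule gave 192 members without the rows after row 40897.

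The members were low in both drought libraries and high in both recovery libraries. Their median level was 16.3 and 15.9 CPM in the normal replicates, 1.28 and 1.57 CPM in the drought replicates, and 48.0 and 48.1 CPM in the recovery replicates. The group means spanned 0 to 2240 CPM in normal, 0 to 409 CPM in drought and 10.1 to 5967 CPM in recovery. The median ratio of drought to normal was 0.0791 over the 197 members with a normal count, against 0.940 over all tested genes with one. The median ratio of recovery to normal was 2.51 for the members and 0.876 for all tested genes. Among the members, 42 had a drought level above 0.25 of normal, 40 lay between 0.125 and 0.25, 49 between 0.03125 and 0.125, and 66 at or below 0.03125. The excess over normal was mostly modest, since 98 members had recovery levels of 2 to 2.5 times normal, 41 of 2.5 to 3 times, 39 of 3 to 4 times, 12 of 4 to 8 times and 7 of more than 8 times.

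**Figure D1:**
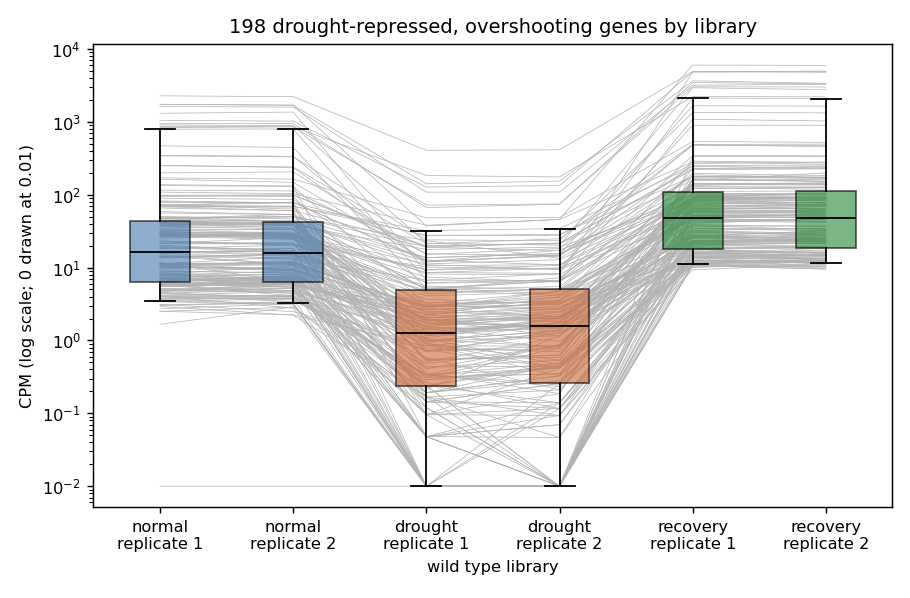
CPM of the 198 members in each wild type library on a log axis, with 1 grey line per gene, boxes for the quartiles and median, whiskers for the 5th and 95th percentiles, and values of 0 drawn at 0.01. The medians are 16.3 and 15.9 CPM in normal, 1.28 and 1.57 CPM in drought, and 48.0 and 48.1 CPM in recovery.

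Together the members held 5.97% and 5.91% of all counts in the recovery libraries, against 2.06% and 2.03% in the normal libraries. In drought they held 0.192% and 0.202%. The mean share came to 2.05% ± 0.025 for normal, 0.197% ± 0.0065 for drought and 5.94% ± 0.048 for recovery libraries (SD, n = 2 each). The conditions did not overlap, a separation that the rule favours. The recovery share was 2.90 times the normal share, and the normal share was 10.4 times the drought share. Most of the members' counts came from a few abundant genes. The 10 members of highest recovery level made up 64.4% of the members' normal counts, 60.4% of their drought counts and 65.2% of their recovery counts. Without them the other 188 members held 2.07% ± 0.015 of the recovery counts against 0.728% ± 0.013 of the normal counts (SD, n = 2 each), a ratio of 2.84.

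The 14 members that reached at least 1000 CPM in recovery held 4.49% ± 0.042 of the recovery counts, against 1.501% ± 0.015 of the normal counts (SD, n = 2 each). Their median recovery level was 3.33 times normal, and 8 of the 14 were at 3 times normal or more. The 40 members between 100 and 1000 CPM held 0.914% ± 0.0041 in recovery and 0.345% ± 0.0065 in normal (SD, n = 2 each), with a median ratio of 2.48, and 10 of the 40 reached 3 times normal. The 144 members between 10 and 100 CPM held 0.538% ± 0.0018 in recovery and 0.201% ± 0.0032 in normal (SD, n = 2 each), also with a median ratio of 2.48, and 40 of the 144 reached 3 times normal. In drought a level of at most 0.125 of normal was found in 11 of the 14, 23 of the 40 and 81 of the 144. The recovery minimum of 10 CPM and the ratio to normal were both parts of the rule, so these tiers describe the members and were not tested against each other.

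**Figure D2:**
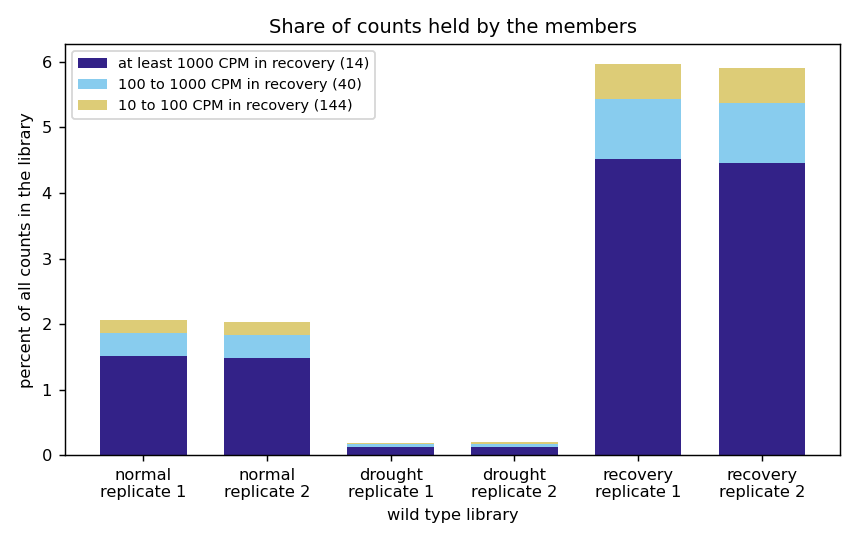
Percent of all counts in each wild type library that the 198 members held, as stacked bars for 3 tiers of recovery level with the number of genes in brackets. The bars reach 2.06% and 2.03% in normal, 0.192% and 0.202% in drought, and 5.97% and 5.91% in recovery, and the 14 genes of the highest tier make up most of each recovery bar.

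Members took a larger place among the most abundant transcripts of rewatered seedlings than of the other plants, which the rule itself favours. Of the 20 rows with the highest mean CPM, 1 was a member under normal watering, 0 were members during drought and 7 during recovery. Of the highest 100, 9 were members under normal watering, 0 during drought and 14 during recovery. CPM is not scaled to transcript length, so these ranks compare read numbers and not molecule numbers between genes.

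The member with the highest normal level, the row labelled OsMH_06G0478400, had 2269 and 2210 CPM in normal, 406 and 412 CPM in drought, and 4890 and 4936 CPM in recovery. The replicates of each condition lay close together and the conditions did not overlap, with an order that 13% of all tested genes showed. Its drought level was 5.47-fold below normal and its recovery level 2.19 times normal, with fitted log2 changes of -2.38 ± 0.04 and 1.32 ± 0.04 (SE, edgeR). The row OsMH_03G0250400, next by normal level and highest of all members in recovery, had 1738 and 1695 CPM in normal, 37.2 and 45.8 CPM in drought, and 6000.4 and 5934 CPM in recovery. Its drought level was 41.3-fold below normal, a deeper fall than that of OsMH_06G0478400, and its recovery level was 3.48 times normal. The fitted log2 changes were -5.29 ± 0.08 for drought and 1.99 ± 0.07 for recovery, both against normal (SE, edgeR).

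The genes that followed by recovery level repeated the shape with different depths of the drought minimum. The third had 1307 and 1358 CPM in normal, 8.56 and 8.32 CPM in drought, and 4792 and 4958 CPM in recovery, so it was 157.9-fold lower in drought and 3.66 times normal in recovery. The fourth had 1047 and 1020 CPM in normal, 127.2 and 133.4 CPM in drought, and 4860 and 4776 CPM in recovery. It was 7.93-fold lower in drought than in normal, and its recovery level was 4.66 times normal. The fifth had 1734 and 1685 CPM in normal, 141 and 153.6 CPM in drought, and 3645 and 3372 CPM in recovery, a recovery level 2.05 times normal and close to the limit of the rule. The sixth had 949.9 and 940.8 CPM in normal, 66.7 and 73.8 CPM in drought, and 3458 and 3303 CPM in recovery, which was 3.58 times normal. In each of these 4 genes both drought libraries were below both normal libraries, and both recovery libraries were above them. The rule favours this order, which 13% of all tested genes showed.

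**Figure D3:**
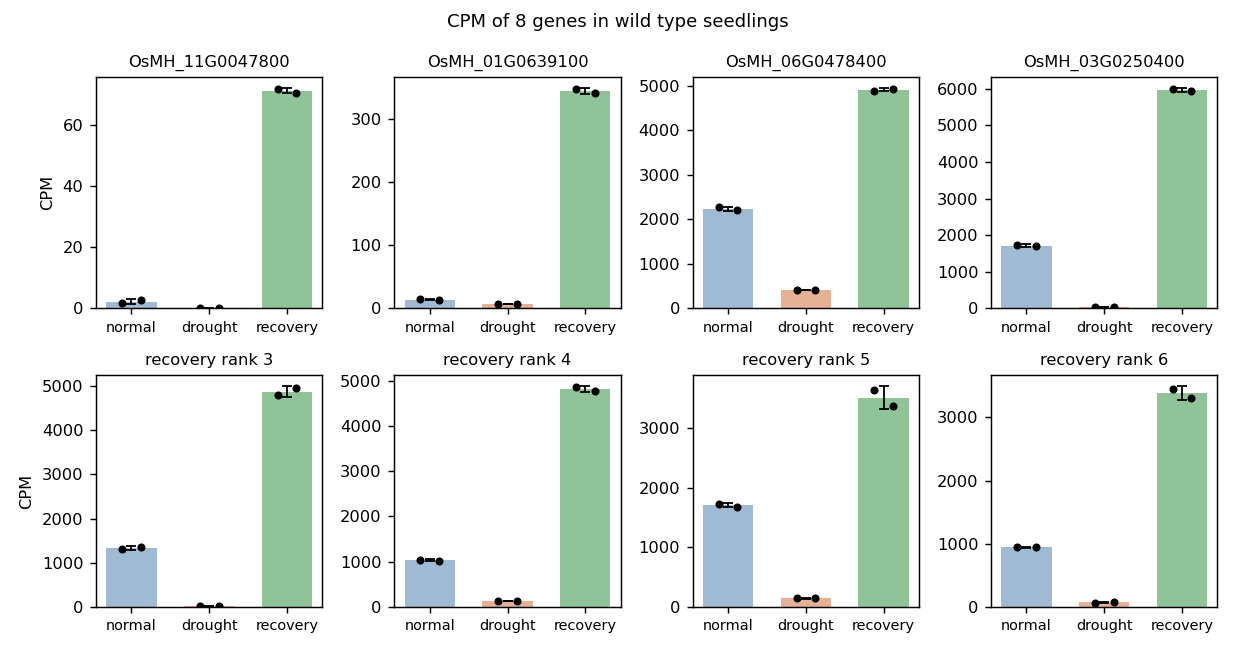
CPM in wild type seedlings of the 4 members named by row label and of the members ranked 3 to 6 by recovery level, with bars for the mean, error bars for the SD (n = 2) and points for the replicates. In all 8 the recovery bar is the highest and the drought bar the lowest, and the axis of each panel has its own scale.

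The members with the largest ratios of recovery to normal had normal means of at most 13.7 CPM, a limit read from these same members. The median normal level was 16.2 CPM over the members and 10.7 CPM over all tested genes. Normal is the divisor of this ratio, so a low normal value favours a high ratio. The row OsMH_11G0047800 had 1.67 and 2.89 CPM in normal, 0.120 and 0 CPM in drought, and 71.8 and 70.6 CPM in recovery. Its drought level was 38.0-fold below normal and its recovery level 31.3 times normal, with a fitted log2 change of recovery against normal of 5.17 ± 0.18 (SE, edgeR), and the drought value rested on 5 counts in replicate 1 and 0 in replicate 2. The row OsMH_01G0639100 had 14.3 and 13.1 CPM in normal, 6.72 and 6.64 CPM in drought, and 346.7 and 340.6 CPM in recovery. Here recovery was 25.02 times normal while the drought level was 0.486 of normal, the ratio nearest to the limit of 0.5 among the members, so this gene was a member by a narrow margin on the drought side.

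The third largest ratio of recovery to normal was 24.0, in a gene with 2.51 and 2.25 CPM in normal, 0.839 CPM in both drought libraries, and 56.8 and 57.3 CPM in recovery. The fourth was 18.3, with 4.76 and 5.24 CPM in normal, 1.20 and 1.77 CPM in drought, and 94.2 and 88.7 CPM in recovery. The fifth was 13.9, with 8.31 and 5.83 CPM in normal, 1.92 and 1.14 CPM in drought, and 94.5 and 102 CPM in recovery. These 3 were reduced in drought by 2.83-fold, 3.37-fold and 4.62-fold, so the drought fall among these 5 genes ran from that of OsMH_01G0639100 to the 38.0-fold of OsMH_11G0047800. Against drought, their recovery levels were 68.0, 61.6 and 64.2 times higher. The 7 members whose recovery was at least 8 times normal had normal means up to 13.7 CPM, that of OsMH_01G0639100. This limit was read from the same 7 genes, so it holds by construction. OsMH_01G0639100 ranked 106 by normal level among all members, so many other members also lay below it. Whether a low normal level goes with a high ratio was not tested.

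Several members were close to 0 in drought. Among members with at least 10 drought counts, the deepest reduction was 456-fold, in a gene with 68.9 and 60.0 CPM in normal, 0.0959 and 0.187 CPM in drought, and 143.8 and 138 CPM in recovery. The next was reduced 373-fold, with 71.9 and 77.3 CPM in normal, 0.144 and 0.256 CPM in drought, and 160.9 and 153.4 CPM in recovery. The third was reduced 224-fold, with 28.9 and 24.9 CPM in normal, 0.240 and 0 CPM in drought, and 89.2 and 89.4 CPM in recovery. In recovery the same 3 genes stood at 2.19, 2.11 and 3.32 times normal. The drought values rest on 12, 17 and 10 counts over both libraries.

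In 85 members the drought mean was under 1 CPM, and 16 members had 0 counts in both drought libraries, among them the 6 that stood after row 40897. Drought replicate 1 held no count in any of the 19006 rows after row 40897, so for those 6 genes its 0 and a row without data cannot be told apart. A count of 0 in both libraries allows up to 3 counts, or 0.0355 CPM, over the group. Against this floor the 9 genes up to row 40897 with a normal count were at least 83.3-fold to 1189-fold lower in drought, with recovery means of 10.1 to 91.2 CPM and normal means of 2.96 to 42.2 CPM. With the 6 later rows the highest bound was 2242-fold. That bound counts the depth of both drought libraries and does not hold if replicate 1 has no data in those rows. A further 4 members had 2 drought counts each. The most abundant of them held 10592 counts in normal, a ratio of normal to drought of 5685 with a 95% counting interval of 1573 to 46946. Intervals and floors cover counting error only. A single member, chosen here after its values were seen, had 0 counts in both normal and both drought libraries and 14.0 and 14.9 CPM in recovery. It met the rule because 0 is not above 0.5 of 0, and it was not reduced in drought, so the reduction describes at most the other 197 genes, or 191 without the rows after row 40897.

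Drought and recovery were each set against the same normal libraries, so a low normal value would enter both ratios. Their values are therefore given side by side and not related to each other. Of 2722 genes with a drought level of at most 0.5 of normal and at least 10 CPM in recovery, the 198 members made up 7.27%, while 2479 came back to within 2-fold of normal and 45 remained at or below 0.5 of normal. The members had a median ratio of drought to normal of 0.0791 and the 2479 genes one of 0.281. Median levels were 1.505 CPM in drought and 16.2 CPM in normal for the members, against 11.2 CPM in drought and 43.9 CPM in normal for the 2479 genes. In recovery the medians were 48.7 CPM for the members and 44.7 CPM for the 2479 genes. Of 313 genes at 2 times normal or more and at least 10 CPM in recovery, the members made up 63.3%, and the other 115 had a median drought level of 1.70 times normal. These sets were divided by the same values, so no test applies to their differences.

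**Figure D4:**
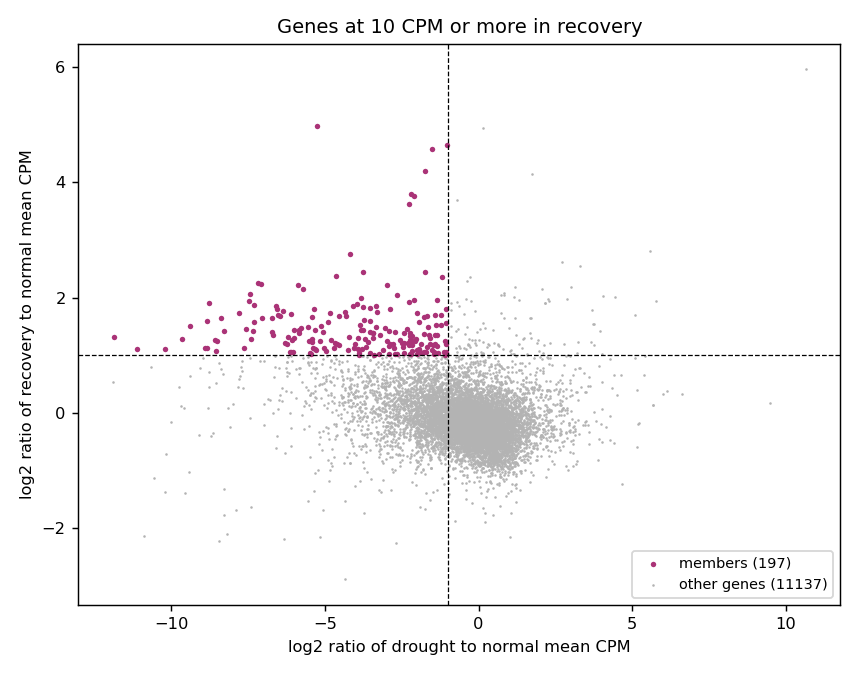
Each point is a gene with at least 10 CPM in recovery and a count in normal, with the log2 ratio of drought to normal mean CPM on the x axis and of recovery to normal mean CPM on the y axis, both with the same normal libraries, drought values under 0.0355 CPM drawn at that floor, and dashed lines at the limits of the rule. The 197 members drawn fill the upper left corner, with most of them close above the horizontal line.

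The limits divided a continuous range of values. The 2 members nearest to the recovery limit were at 2.004 and 2.006 times normal, and the 2 genes just outside it at 1.998 and 1.995 times. On the drought side the members nearest the limit were at 0.486 and 0.485 of normal and the genes just outside at 0.507 and 0.532. The least abundant members had 10.07 and 10.10 CPM in recovery, and the next genes that met both ratios had 9.93 and 9.75 CPM. No gap separated members from their neighbours at any of the 3 limits.

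In the edgeR quasi-likelihood fit of the 6 wild type libraries, 197 of the 198 members were called lower in drought than in normal, where 37.3% of all tested genes were called lower (Benjamini-Hochberg adjusted p under 0.05). All 198 were called higher in recovery than in drought, against 38.2% of all tested genes, and all 198 higher in recovery than in normal, against 18.1%. The member not called in the first comparison was the gene with 0 counts in normal and drought. The rule used these 3 comparisons, so the calls are read as a description only. The median fitted log2 change of the members was -3.55 for drought against normal, 5.32 for recovery against drought and 1.52 for recovery against normal, and the medians over all tested genes were -0.00, -0.01 and 0.00. These fitted values use TMM scaling, which raised the median gene by 0.19 for recovery against normal, by 0.11 for recovery against drought and by 0.08 for drought against normal on the log2 scale relative to library totals. The CPM ratios above use library totals, as the rule does. Under TMM and median-of-ratios scaling alike, 197 of the 198 members had a mean below normal in drought and above normal in recovery. The rule required 2-fold differences in the same libraries, larger than these TMM shifts, so the choice favours this outcome and it is not a test.

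In 197 of 198 members, both drought libraries were below both normal libraries and both recovery libraries above them, an order found in 13% of all tested genes. The lowest recovery replicate was 1.64 to 24.5 times the highest normal replicate over these 197 genes, with a median of 2.33, and 160 members met the limits of the rule with every pair of libraries. Over the 198 members the replicates of a condition correlated at r = 0.991 to 0.998 in log2(CPM + 1), a description across genes. The median absolute replicate difference of the members in log2(CPM + 1), a measure that the rule did not use, stood at 0.085 between normal, 0.154 between drought and 0.068 between recovery libraries. Over all tested genes it stood at 0.097 for normal, 0.106 for drought and 0.096 for recovery. Over the 11336 genes with at least 10 CPM in recovery it stood at 0.068 for normal, 0.086 for drought and 0.066 for recovery. With 0.1 CPM in place of 1 CPM added before the logarithm, the members' difference in drought was 0.258, against 0.134 over all tested genes. The members thus stood furthest from the other genes in drought, where their own levels were lowest. They stood nearest to the genes with at least 10 CPM in recovery when the recovery libraries were compared. The rule limited the members' levels, and the sets were not matched for level, so the part that level plays was not tested.

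When the rule was applied to the 3 libraries numbered 1 alone, it took 206 genes, and to the 3 numbered 2 alone, 202 genes. The 166 genes that both took were 80.6% of the first list and 82.2% of the second. Of the 198 members, 183 were in the first list and 179 in the second. The same libraries supplied the means that chose the 198, so this overlap describes the choice and is not a replication. Per the labels, the experiment was done on more than 1 batch of plants, and no label ties a replicate number to a batch.

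Row order was the only other property of the members that the table gave. Another member stood within 5 rows of 13 of the 198 members (6.57%), and a member stood within 5 rows of 6.02% of the other genes with at least 10 CPM in recovery. These shares lay close together. A directly adjacent row was a member for 7 of the 198 members (3.54%) and for 1.23% of the other genes at that level. These 7 formed a run of 3 rows and 2 pairs. In the run, the normal means were 21.8, 64.5 and 9.98 CPM, the drought means 0.0600, 0.141 and 0.331 CPM, and the recovery means 52.0, 140.9 and 29.9 CPM. In one pair the recovery means were 10.8 and 2845 CPM, against 5.27 and 895 CPM in normal, and in the other 43.6 and 491 CPM, against 18.3 and 245 CPM in normal. How reads shared by overlapping genes or by near-identical copies were counted is not given in the sources used here, so counts of adjacent rows may not be independent.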

How the data were processed

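The deposited table holds whole-number counts per gene, with 1 column per library and no normalization, per the file headers. STAR 2.7.10a, StringTie 2.1.7 and fastp 0.23.0 were used by the authors, per the submitters' processing notes, which give no roles. Build, annotation and strand setting are not given in the sources used here. CPM values, means, SDs and ratios were computed from these counts in Python 3.11.15 with pandas 2.3.3 and NumPy 2.4.6.

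The counts of the 6 wild type libraries (37400784 to 42894245 each) were fitted together with edgeR 4.0.16 in R 4.3.3 (TMM, filterByExpr, two-sided quasi-likelihood F-test, 3 residual degrees of freedom, Benjamini-Hochberg adjustment over 22898 genes, adjusted p under 0.05). The procedure was run on simulated data with the same spread for every gene and few changed genes. That setting differs from these data, so it checks the code and does not measure error rates here. Fitted log2 changes of single genes are unshrunk coefficients, and their SE is the absolute change divided by the square root of the F statistic. Medians of fitted log2 changes over genes use the log2 changes that edgeR reports, which are shrunk. The p-values measure the spread between these samples, and no label states that the replicates of a group are separate batches of plants. Replicate differences were taken in log2(CPM + 1), and with 0.1 CPM as an alternative. DESeq2 1.42.0 and other settings were tried.

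The members, and the rules by which genes are named, were chosen with earlier results of these data known. At most 4 labels are printed: the 2 members with the highest ratio of recovery to normal among those with at least 10 normal counts, and the 2 with the highest normal CPM. Others are given by rank: recovery ranks 3 to 6, recovery to normal ratio ranks 3 to 5, the 3 lowest drought to normal ratios among members with at least 10 drought counts, and the genes next to each limit. The single gene at 0 in normal and drought, the adjacent runs and the rows after row 40897 were added after seeing the data. No gene lists were used, because no label could be tied to a gene. The osbzip23 libraries (14653876 and 17009931 counts) entered only the row check and 1 alternative fit. Their rows did not correspond to the wild type rows, so that fit mixes unlike rows and nothing is concluded from it.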

Additional observations from a re-analysis of the deposited data

How the results depend on the processing

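The number of members moved with the limits and the scaling. Median-of-ratios scaling gave 312, limits of 1.5-fold 539, limits of 3-fold 52, a recovery minimum of 1 CPM 352 and one of 50 CPM 96. TMM scaling gave 297, of which 193 were among the 198. Leaving out 1 library at a time gave 192 to 213. The share of counts held by the members was 1.92% in normal and 6.37% in recovery on TMM effective library sizes. Without the 10 most abundant members, chosen after seeing the data, this share came to 0.728% in normal, 0.0781% in drought and 2.07% in recovery libraries. Members with another member nearby numbered 7 within 1 row and 39 within 20 rows (19.7%, against 19.98% of other genes). Adding 0.1 CPM in place of 1 CPM moved the members' median replicate difference to 0.0945 in normal, 0.258 in drought and 0.0681 in recovery libraries. Counts of members called stayed within 1.5 times under every alternative run, which the rule favours because it used the same comparisons. They were 184 to 197 lower in drought than normal, 198 higher in recovery than drought, and 152 to 198 higher in recovery than normal. The lowest counts, 184 and 152, came with a minimum log2 fold change of 1. Under that minimum, 4370 of all 22898 tested genes were called lower in drought than normal. In recovery, 4935 were called higher than in drought and 330 higher than in normal. With the replicate block, 197, 198 and 198 members were called, against 8371, 8558 and 3891 of 22898 tested genes in the same directions. Replicate 1 deviations correlated between conditions at r = -0.062 to 0.0015, so the numbers are not shown to pair the samples. Depth limits the drought side most, since 34 members had under 10 drought counts.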
